A study of Mus musculus with 9 samples.

Results

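P2 receptors are the cell surface proteins through which macrophages sense nucleotides such as ATP, ADP, UDP and UDP-sugars outside the cell. The 8 genes described here, P2rx1, P2rx4, P2rx7, P2ry2, P2ry6, P2ry12, P2ry13 and P2ry14, were chosen by name from the 2 receptor classes and make up 8 of the 55655 rows of each deposited expression table. They are 3 P2X genes and 5 P2Y genes, and each symbol matched a single row through its Ensembl identifier.

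Nucleotides are kept at low levels outside healthy cells and are released by stressed, dying or stimulated cells. P2X receptors are ion channels opened by ATP that let in calcium and sodium, and P2Y receptors are coupled to G proteins and differ in the nucleotide they prefer. In macrophages P2X7 is known as the channel whose opening lets potassium leave the cell and triggers the NLRP3 inflammasome and release of mature IL-1β, P2Y2 senses ATP and UTP as a find-me signal from dying cells, and P2Y6 senses UDP and has been linked to phagocytosis.

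All cells were bone marrow-derived macrophages (BMDMs) of wild type C57BL/6 mice aged 6 to 8 weeks, grown from femur and tibia marrow for 7 days with 10 ng/mL M-CSF, the growth factor that yields resting M0 macrophages. M0 cells received neither LPS and IFN-γ nor light. M1 cells received LPS, a bacterial cell wall component, with IFN-γ, a T cell and NK cell cytokine, which together set off the inflammatory M1 state, and stood in a dark box without light. M1+PBM cells received the same stimuli while a near-infrared laser irradiated them (photobiomodulation, PBM), and RNA was collected at 12 h. RNA-seq gave 3 libraries per group, and the labels do not say whether these came from separate mice, so that the p-values measure the spread between these libraries. The cultures lack the injured tissue that supplies nucleotides in vivo.

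Expression was given as FPKM, fragments scaled for transcript length and for library size, which can be compared between genes because it is scaled for length. Depth was not stated, and an estimate from the steps between low values put 30790000 to 42040000 fragments in a library. The macrophage markers, all 8 expressed, summed to an FPKM of 5499 to 10341 in a library. M0 replicate 3 stood apart, with collagen and other stromal markers summing to 177.4, against 5.14 to 6.42 in the other M0 libraries and 3.23 to 25.2 in the other groups, and with Il1b at 25.1 against 0.24 and 0.29. M1 replicate 2 was the only library with albumin, Alb, above 0, at 9.01. Xist, transcribed from the inactive X chromosome of female cells, and the Y-linked Ddx3y followed the replicate numbers of M1 and M1+PBM. The study's methods name male mice. Both genes were present in replicate 1 of all 3 groups, M1 and M1+PBM replicate 2 had Ddx3y at 5.77 and 5.64 with Xist at 0.0015 and 0.0013, and their replicate 3 had Xist at 55.7 and 64.8 with Ddx3y listed at 0. Within M1 and M1+PBM, replicates 2 and 3 thus held cells of different sexes, and so of different mice. M0 replicates 2 and 3 had Ddx3y at 8.49 and 6.59, so the mix of sexes differed between M0 and the other groups and cannot be told apart from M1 minus M0 differences. Because M0 was deposited in a table of its own, M0 levels are set beside the others as a description, without a test. Lower expression per cell and fewer expressing cells cannot be told apart in bulk RNA.

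Genes of this family lie next to each other in the genome. In the GENCODE M21 order of genes P2rx7 and P2rx4 are neighbours on the plus strand of chromosome 5, P2ry6 and P2ry2 are neighbours on the minus strand of chromosome 7, and P2rx1 lies on chromosome 11, away from the other chosen genes. P2ry14, P2ry13 and P2ry12 lie close together on the minus strand of chromosome 3, all of them inside Med12l, a gene of the plus strand. The libraries were strand-specific per the labels, but whether strand was used in the expression estimates is not given in the sources used here, so reads of Med12l and the 3 receptors may be shared. Med12l itself was low, with an FPKM of 0.05 to 0.08 in M0, 0.29 to 0.68 in M1 and 0.25 to 0.49 in M1+PBM.

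Start regions from RefSeq on build GRCm38.p6 were found for 7 of the 8 genes, in 12 windows from 250 bases before to 50 bases after an annotated start. Each was searched on both strands for an ISRE-like motif of interferon factors (TTCNNTTTC), an AP-1 motif (TGANTCA) and an NF-kB-like motif (GGNNTTTCC), sites that factors downstream of IFN-γ and LPS are known to use. Among all 32851 windows, 8.56% held the ISRE-like letters, 7.81% the AP-1 and 5.82% the NF-kB-like letters. The windows of the chromosome 3 genes with the largest M1 difference, P2ry13 and P2ry14, are shown with those of the chromosome 5 neighbours P2rx7 and P2rx4, whose levels went opposite ways. All run 5′ to 3′ on the strand of the gene, and capitals mark a match.
P2ry13, chr3:59210833-59211132, minus strand: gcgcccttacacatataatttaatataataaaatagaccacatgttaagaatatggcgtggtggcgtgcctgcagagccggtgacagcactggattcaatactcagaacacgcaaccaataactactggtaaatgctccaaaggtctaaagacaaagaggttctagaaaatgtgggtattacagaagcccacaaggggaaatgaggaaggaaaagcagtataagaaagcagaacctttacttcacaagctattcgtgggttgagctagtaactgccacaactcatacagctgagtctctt
P2ry14, first of 4 starts, chr3:59153443-59153742, minus strand: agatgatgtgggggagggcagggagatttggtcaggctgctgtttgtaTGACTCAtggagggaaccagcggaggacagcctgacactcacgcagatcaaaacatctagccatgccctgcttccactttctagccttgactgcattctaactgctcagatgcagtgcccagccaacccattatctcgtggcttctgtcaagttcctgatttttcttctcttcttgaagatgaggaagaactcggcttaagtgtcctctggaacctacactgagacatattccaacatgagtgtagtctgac
P2ry14, last of 4 starts, chr3:59130713-59131012, minus strand: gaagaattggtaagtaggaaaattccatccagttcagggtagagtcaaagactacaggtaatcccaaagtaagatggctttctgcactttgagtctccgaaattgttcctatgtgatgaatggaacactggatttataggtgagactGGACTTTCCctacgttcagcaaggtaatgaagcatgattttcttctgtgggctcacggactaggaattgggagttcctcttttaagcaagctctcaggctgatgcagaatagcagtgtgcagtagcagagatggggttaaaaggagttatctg
P2rx7, first of 2 starts, chr5:122643677-122643976, plus strand: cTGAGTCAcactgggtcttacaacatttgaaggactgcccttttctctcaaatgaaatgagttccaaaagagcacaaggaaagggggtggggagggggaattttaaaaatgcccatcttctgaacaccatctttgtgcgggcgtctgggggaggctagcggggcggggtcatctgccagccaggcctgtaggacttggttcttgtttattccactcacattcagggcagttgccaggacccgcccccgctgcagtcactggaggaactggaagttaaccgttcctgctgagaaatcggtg
P2rx4, chr5:122707294-122707593, plus strand: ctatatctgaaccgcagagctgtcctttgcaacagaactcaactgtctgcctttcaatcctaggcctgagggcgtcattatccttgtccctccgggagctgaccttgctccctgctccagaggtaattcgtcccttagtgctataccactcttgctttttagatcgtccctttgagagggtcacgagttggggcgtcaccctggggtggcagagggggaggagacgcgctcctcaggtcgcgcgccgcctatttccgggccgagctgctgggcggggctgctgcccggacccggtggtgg

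The P2ry13 and P2rx4 windows held none of the 3 motifs. The first P2ry14 window had the AP-1 letters TGACTCA at position -202 from the start, its second window had TGAATCA at -144, and its last window had the NF-kB-like letters GGACTTTCC at -103. The first P2rx7 window had the AP-1 letters TGAGTCA at -249, its farthest end. Outside the windows shown, the P2rx1 window had the NF-kB-like letters GGTTTTTCC at -19, and the windows of P2ry2 and P2ry12 held no match. A match describes letters and is not evidence of binding, and which P2ry14 start was used was not measured.

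In resting M0 macrophages P2ry6, the UDP receptor, had the highest level, with a mean FPKM of 39.4 ± 4.61 (SD, n = 3 here and below). P2rx4 followed at 23.4 ± 4.14 and P2rx7 at 11.9 ± 3.76, then P2ry2 at 3.53 ± 0.98. P2ry13 at 1.52 ± 0.69 and P2ry14 at 1.12 ± 0.41 overlapped, and P2ry12 at 0.48 ± 0.16 and P2rx1 at 0.02 ± 0.04 were lowest. All other neighbours in this order were apart in every library.

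In M1 macrophages P2ry6 at 42.3 ± 4.65 and P2rx4 at 33.9 ± 1.45 were still the highest and still apart. Below them 4 genes formed an overlapping chain, P2ry13 at 7.77 ± 1.65, P2ry2 at 6.24 ± 0.82, P2rx7 at 5.71 ± 0.94 and P2ry14 at 4.77 ± 1.57. P2rx7 thus went from the third to the fifth place and P2ry13 from the fifth to the third, although neighbours within this chain did not differ beyond their spread. In M1+PBM, P2ry6 at 49.4 ± 13.5 and P2rx4 at 37.8 ± 1.88 overlapped. The chain then read P2rx7 at 9.13 ± 2.39, P2ry13 at 6.497 ± 1.32, P2ry2 at 4.77 ± 1.58 and P2ry14 at 3.05 ± 1.14, each overlapping the next. P2ry6 and P2rx4 together made up 73.7% to 81.0% of the summed FPKM of the 8 genes in every library. The sum of the 8 chosen genes was thus dominated by these 2 transcripts, and other P2 genes are not part of it.

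**Figure D1:**
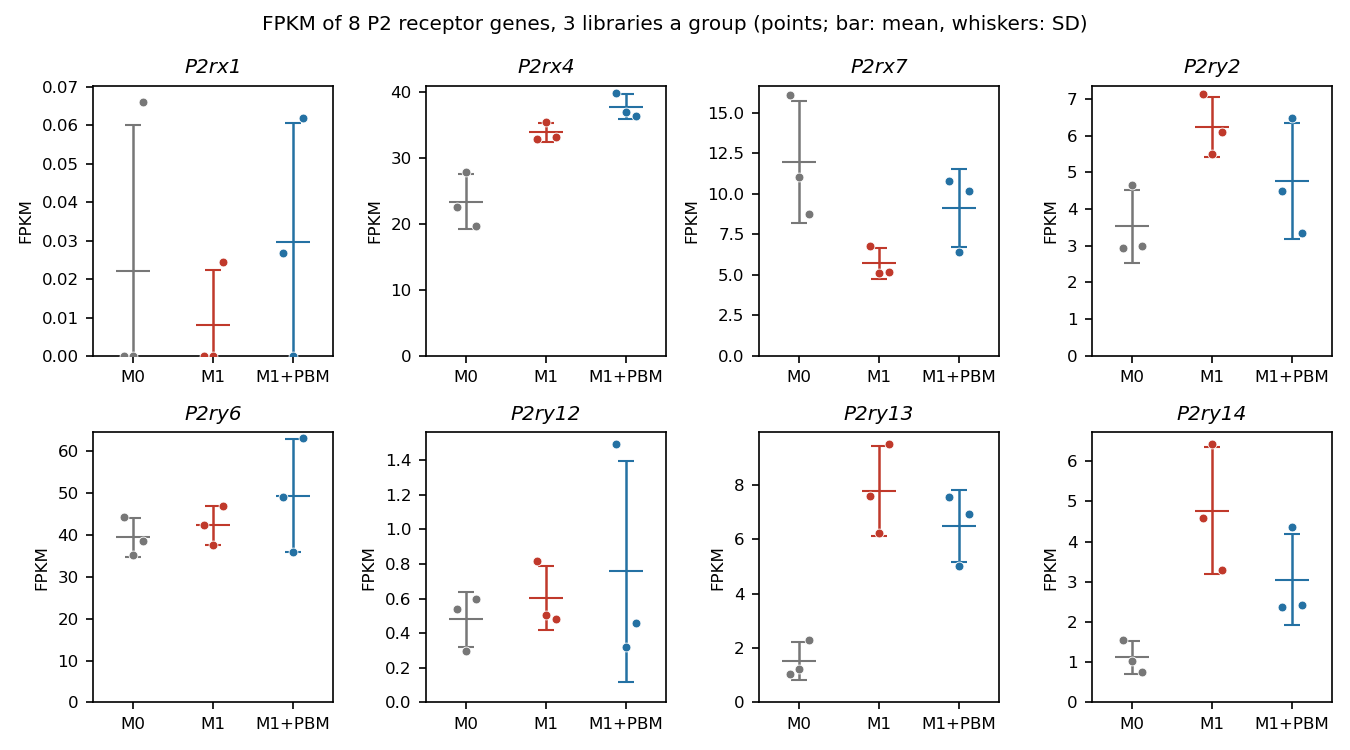
FPKM (vertical axes, linear and different for each gene) of the 8 P2 receptor genes in M0, M1 and M1+PBM, with 1 point per library, the mean as a bar and the SD as whiskers, cut at 0. P2ry13 and P2ry14 lay between 0.75 and 2.31 in M0 and between 3.30 and 9.49 in M1, while P2rx7 lay at 8.74 to 16.1 in M0 and 5.14 to 6.80 in M1.

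The first comparison, of M1 with M0, asked how the receptors differ between the inflammatory and the resting state. In 4 genes (P2rx4, P2ry2, P2ry13 and P2ry14) all 3 M1 libraries lay above all 3 M0 libraries, in P2rx7 all lay below, and in P2rx1, P2ry6 and P2ry12 the groups overlapped. Among the 13915 rows that reached an FPKM of 1 in 3 or more of the 9 libraries, 15.6% were higher without overlap and 50.6% lower. The median difference of these rows, M1 minus M0, was -0.34 on the log2(FPKM + 1) scale, a shift that median-of-ratios scaling of the 9 libraries brought to -0.0073. After that scaling 28.9% of the rows were higher and 28.1% lower without overlap. The scaled members then had 6 genes higher, 0 lower and 2 overlapping, since P2ry6 and P2ry12 joined those higher and P2rx7 no longer separated. P2rx1 and P2ry12 lie outside the 13915 rows, so these shares apply to the other receptor genes only. Without M0 replicate 3 the unscaled counts were again 4 higher, 1 lower and 3 overlapping, and no share of all rows was computed without that library.

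Among the channels, P2rx4 encodes a calcium-permeable ATP channel found largely on lysosomes. Its FPKM was 22.6, 27.9 and 19.8 in M0, 32.9, 35.6 and 33.3 in M1, and 39.95, 37.1 and 36.4 in M1+PBM, so that as deposited each group lay wholly above the one before. After median-of-ratios scaling M1 and M1+PBM overlapped, at 36.6 to 39.9 and 37.8 to 42.8. The M1 mean was 1.45 times the M0 mean, a difference of 0.53 on the log2(FPKM + 1) scale, on which all differences here are given and which understates those of low genes. It was 0.42 without M0 replicate 3 and 0.95 after median-of-ratios scaling.

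P2rx7, which encodes the low-affinity ATP channel of inflammasome activation, went the other way. Its FPKM was 16.1, 11.02 and 8.74 in M0 and 6.80, 5.14 and 5.20 in M1. All M1 libraries were below all M0 libraries, the M0 mean was 2.09 times the M1 mean, and the log2 difference was -0.92, or -1.10 without M0 replicate 3. After median-of-ratios scaling it was -0.53 and the groups overlapped, because the lowest scaled M0 value of 7.38 fell below the highest scaled M1 value of 7.55. The ratio of P2rx4 to P2rx7 within a library does not depend on such scaling. It was 1.41, 2.53 and 2.26 in M0 and 4.84, 6.93 and 6.39 in M1, without overlap, and this separation holds under any scaling of the libraries.

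P2rx1, an ATP channel best known from platelets and smooth muscle, was listed at 0 in 5 of the 9 libraries and reached at most 0.07. Such a value corresponds to at most 5.7 fragments, and no difference was detectable at this depth. The platelet and megakaryocyte markers summed to 5.20 to 12.5 in M0 and 0.95 to 3.22 in M1, and in M0 most of this came from the integrin gene Itgb3.

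Among the P2Y genes, P2ry2 and P2ry6 signal through Gq and calcium. P2ry2, the ATP and UTP receptor, had an FPKM of 2.94, 4.66 and 2.98 in M0 and 7.12, 5.49 and 6.11 in M1. The M1 libraries were all higher, with a mean 1.77 times that of M0 and a log2 difference of 0.69 (1.04 after scaling). P2ry6 had 44.4, 35.3 and 38.4 in M0 and 42.4, 37.7 and 47.0 in M1. These ranges overlapped with a log2 difference of 0.10, and after scaling the difference was 0.53 without overlap. For the most abundant receptor gene, then, the choice of scaling set whether the groups separated.

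P2ry12, P2ry13 and P2ry14 form the Gi-coupled branch, which lowers cyclic AMP. P2ry13, a receptor for ADP, differed most, with an FPKM of 1.03, 1.23 and 2.31 in M0 and 7.60, 6.21 and 9.49 in M1. The lowest M1 library lay well above the highest M0 library, the M1 mean was 5.10 times the M0 mean, and the log2 difference was 1.81. It was 2.03 without M0 replicate 3, the highest of the M0 libraries, 2.11 after scaling and 2.34 with a pseudocount of 0.1.

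P2ry14, the receptor for UDP-glucose and related UDP-sugars, came next. Its FPKM was 1.56, 1.04 and 0.75 in M0 and 4.58, 6.43 and 3.30 in M1, again with all M1 libraries higher. The ratio of means was 4.27 and the log2 difference 1.43, with 1.299 without M0 replicate 3, 1.70 after scaling and 2.003 with a pseudocount of 0.1. Neutrophils are known to express P2ry14, and the neutrophil markers summed to 1.302 to 2.17 in M0, 6.91 to 27.2 in M1 and 4.94 to 14.6 in M1+PBM. Nearly all of this was S100a8, and S100a9 and Ly6g were listed at 0 in every library. The part of such cells in the P2ry14 difference was not tested.

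P2ry12, the ADP receptor known as a platelet drug target and a microglial marker, lies beside these genes and overlapped between M0 and M1 as deposited. It had 0.54, 0.30 and 0.60 in M0 and 0.81, 0.51 and 0.48 in M1, at levels where at most 75.7 fragments lay behind a value in these 6 libraries. After scaling its M1 libraries were all higher, with a log2 difference of 0.26. Microglial markers summed to 3.41 to 9.78 in M0, 1.59 to 3.05 in M1 and 1.38 to 3.64 in M1+PBM, with the defining factor Sall1 at 0 throughout. Dendritic, lymphoid and erythroid markers summed to at most 1.10, 0.55 and 0.25 in any library.

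The chromosome 3 genes could share reads with Med12l, and Med12l was also higher in M1, by 0.47 on the log2 scale without overlap. The part of shared reads in the differences of P2ry13 and P2ry14 was not tested. Gpr171, a neighbour of P2ry14, was listed at 0 in every M0 library and reached 0.16 in M1.

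M1+PBM set beside M0 gave a like description and shares the M0 libraries. P2rx4, P2ry13 and P2ry14 were higher without overlap, none was lower, and 5 overlapped, where 15.9% of all rows were higher and 46.2% lower and the median difference of all rows was -0.27. Those shares leave out P2rx1 and P2ry12. After median-of-ratios scaling 4 were higher, as P2ry6 joined them, 0 were lower and 4 overlapped, and no share of all rows was computed for the scaled values here. As deposited, P2rx7 overlapped M0 here, at 10.8, 6.40 and 10.2 against 8.74 to 16.1. Without M0 replicate 3, whose P2rx7 value was the lowest of M0, P2rx7 was lower without overlap as well, and the counts were 3 higher, 1 lower and 4 overlapping. No share of all rows was computed without that library.

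The main comparison, of M1+PBM with M1, asked whether irradiation during activation changed the receptors. As deposited, P2rx4 and P2rx7 were higher and P2ry13 and P2ry14 lower in the irradiated member of every same-numbered pair, where 25.5% of all rows were higher and 10.1% lower in all 3 pairs. After median-of-ratios scaling P2rx4 was higher in 2 of 3 pairs and the other 3 genes kept their sign in every pair. No share of all rows was computed for the scaled pairs, and the shares above do not carry over to them. None of the 6 receptor genes tested passed the threshold on adjusted p. The fit in limma took the 12238 rows that reached an FPKM of 1 in 3 or more of the 6 libraries, which left out P2rx1 and P2ry12. Of the 6 genes 3 had a positive and 3 a negative log2 fold change, with a median of -0.036, where the median of all rows was 0.058. At an unadjusted p of at most 0.05 in limma 1 gene was higher, P2rx7, and 0 were lower, where 2.99% of all rows were higher and 1.45% lower. The split of these calls over all rows hung on scaling, with 366 higher and 177 lower as deposited, 240 and 290 after median-of-ratios scaling, and 260 and 254 after quantile normalization. In this limma fit no receptor gene reached the cutoffs of the study (the same p together with a log2 fold change of 1 or more in size), which 0.261% of the rows did. Nor did any reach an adjusted p under 0.05, which 1 row, or 0.00817%, did. The study called more genes at these cutoffs, most of them higher, by a test that its methods do not name. This fit and the exact permutation tests did not pair the libraries by replicate number. Blocked on that number, limma gave adjusted p-values of 0.58 to 0.60 for the 6 genes.

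**Figure D2:**
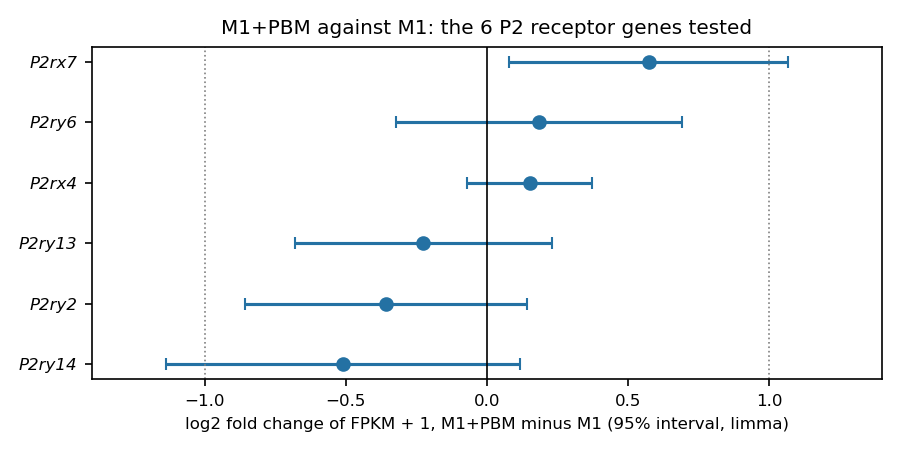
Log2 fold change of FPKM + 1 (horizontal axis) between M1+PBM and M1 for the 6 receptor genes tested, 3 libraries a group, with the 95% interval from limma as whiskers and dotted lines at a log2 fold change of 1 in either direction. Only the interval of P2rx7, 0.080 to 1.07, leaves out 0 in this fit, which did not pair the libraries by replicate number.

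P2rx7 had an FPKM of 10.8, 6.40 and 10.2 in M1+PBM replicates 1 to 3, against 6.80, 5.14 and 5.20 in M1. Irradiated replicates 1 and 3 were above every M1 library, and replicate 2 lay below M1 replicate 1, so the groups overlapped. The log2 fold change was 0.57 (SE 0.21, 95% interval 0.080 to 1.07), with an unadjusted p of 0.029 and an adjusted p of 0.90 in limma, and the two-sided exact permutation test gave p = 0.2, where 0.1 is the smallest that 3 against 3 allows. All 3 same-numbered pairs went up, by 0.60, 0.27 and 0.85. When limma blocked on the replicate number, the SE was 0.13 and the unadjusted p 0.0086 (adjusted p 0.58, and 0.48 to 0.995 over all alternatives). The unadjusted p exceeded 0.05 when M1 replicate 2, M1 replicate 3, M1+PBM replicate 1 or M1+PBM replicate 3 was left out, with fold changes of 0.51, 0.52, 0.45 and 0.49.

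As deposited, P2rx4 was the gene whose groups did not overlap, at 39.95, 37.1 and 36.4 against 32.9, 35.6 and 33.3. Among the 12238 rows tested 8.51% were higher in M1+PBM without overlap and 2.52% lower. Of the 6 receptor genes among these rows 1 was higher, near this background. The log2 fold change was 0.15 (SE 0.092, 95% interval -0.070 to 0.37), with an adjusted p of 0.90 in limma and an exact permutation p of 0.1. A rise of more than 0.37 lay outside this interval. After median-of-ratios scaling the fold change was 0.078, with an unadjusted p of 0.44 in limma, and the groups of all 8 receptor genes overlapped. The ratio of P2rx4 to P2rx7 in a library was 3.70, 5.79 and 3.58 in M1+PBM, below the M1 ratio of the same number in all 3 pairs, and its range overlapped that of M1, 4.84 to 6.93.

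P2ry14 had an FPKM of 2.38, 4.36 and 2.41 in M1+PBM, against 4.58, 6.43 and 3.30 in M1. The highest irradiated library, replicate 2, lay above M1 replicate 3, so the groups overlapped, but each irradiated library was below the M1 library of its number, by 0.73, 0.47 and 0.33 on the log2 scale. The log2 fold change was -0.51 (SE 0.26, 95% interval -1.14 to 0.12), with an unadjusted p of 0.095 and an adjusted p of 0.90 in limma and an exact permutation p of 0.2. With the replicate block, limma gave an SE of 0.11 and an unadjusted p of 0.0063 (adjusted p 0.58, and 0.58 to 0.995 over all alternatives). P2rx7 and P2ry14 were the 2 receptor genes at an unadjusted p of at most 0.05 in that fit, where 4.84% of all rows were higher and 3.24% lower. The unadjusted p for P2ry14 was also under 0.05 in limma without M1 replicate 3, at a fold change of -0.70, and without M1+PBM replicate 2, at -0.73. The fold change shrank to -0.31 without M1 replicate 2 and to -0.40 with either of M1+PBM replicates 1 and 3 left out, where limma gave unadjusted p-values of 0.27, 0.24 and 0.23.

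**Figure D3:**
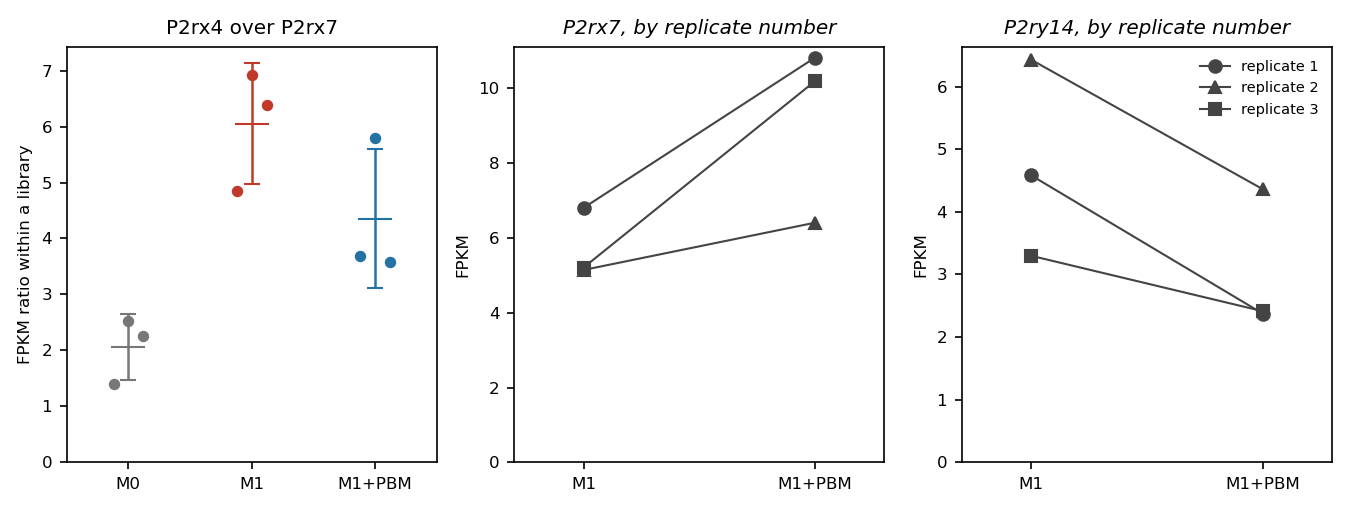
Left, FPKM of P2rx4 divided by that of P2rx7 in each library of M0, M1 and M1+PBM (points, with mean and SD). Middle and right, FPKM of P2rx7 and P2ry14 in M1 and M1+PBM with lines between libraries of the same replicate number, where P2rx7 is higher and P2ry14 lower under PBM in all 3 pairs.

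None of the other receptor genes passed an unadjusted p of 0.05 with all 6 libraries in limma. With the replicate block the unadjusted p in limma was 0.13 for P2rx4, 0.14 for P2ry2, 0.17 for P2ry6 and 0.093 for P2ry13. P2ry2 had an FPKM of 4.49, 6.47 and 3.35 in M1+PBM against 7.12, 5.49 and 6.11 in M1. Replicates 1 and 3 were lower under PBM and replicate 2 higher, giving a log2 fold change of -0.36 (SE 0.21, 95% interval -0.86 to 0.14), an adjusted p of 0.90 in limma and an exact permutation p of 0.3. Without M1+PBM replicate 2 it was -0.56 with an unadjusted p of 0.015 in limma, and without M1+PBM replicate 3 it was -0.17 with an unadjusted p of 0.38. P2ry6 had 49.1, 36.0 and 63.0 against 42.4, 37.7 and 47.0, the largest SD in FPKM among the irradiated groups of these genes. Its log2 fold change of 0.19 (SE 0.21, 95% interval -0.32 to 0.69, adjusted p 0.90 in limma, exact permutation p = 0.6) was -0.0045 without M1+PBM replicate 3.

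P2ry13 had an FPKM of 7.55, 5.01 and 6.93 in M1+PBM against 7.60, 6.21 and 9.49 in M1. The pairs differed by -0.0085, -0.26 and -0.40, and the log2 fold change was -0.22 (SE 0.19, 95% interval -0.68 to 0.23, adjusted p 0.90 in limma, exact permutation p = 0.4). Leaving out M1+PBM replicate 2 brought the fold change to -0.073, while with M1 replicate 3 left out it was -0.087 and with M1 replicate 2 left out it was -0.36. The 95% interval leaves room for changes of either sign, but a rise of more than 0.23 lies outside it. P2ry12 had 1.49, 0.32 and 0.46 against 0.81, 0.51 and 0.48, where replicate 1 alone was high, and its exact permutation p was 1. P2rx1 had 0.03, 0 and 0.06 against 0, 0 and 0.02, too few fragments to compare.

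Lists of other genes linked to nucleotides and their receptors give a context, and some of these genes act mainly inside the cell. Genes were counted that reached an FPKM of 1 in at least 3 of the 9 libraries. Of 9 other P2 genes 2 did so. P2ry1, another Gq-coupled ADP receptor, was at 4.17 ± 1.09 in M0, 0.26 ± 0.13 in M1 and 0.28 ± 0.10 in M1+PBM, lower in every M1 library than in any M0 library. ADP receptor transcripts were therefore unequal in M1, with P2ry13 higher and P2ry1 lower than in M0, each without overlap before and after scaling. P2ry10b, a relative without a settled nucleotide ligand, was at 5.47 ± 1.36, 4.29 ± 0.63 and 3.46 ± 0.56, overlapping between M0 and M1. Its log2 difference of -0.28 was -0.46 without M0 replicate 3, and M1 then lay below M0 without overlap.

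Of 8 expressed genes of nucleotide release, 2 were higher and 4 lower in M1 than in M0 without overlap, or 3 and 3 after scaling. Over all 13915 rows 15.6% were higher and 50.6% lower without overlap, or 28.9% and 28.1% after scaling. The release counts were near these shares, and the counts of the lists below are to be read beside them. Lrrc8c, a subunit of volume-regulated anion channels, was at 3.31 ± 0.94 in M0 and 24.6 ± 1.32 in M1, a log2 difference of 2.59. Slc17a9, which loads ATP into vesicles, differed by -1.17, Lrrc8b by -0.96, and Panx1, the pannexin channel that passes ATP, by -0.92, and all 3 were also lower after scaling. Of 11 expressed genes of nucleotide breakdown and conversion, 1 was higher and 8 lower in M1, or 1 and 5 after scaling. The higher one was Enpp4, a membrane hydrolase, at 1.197 ± 1.301 in M0, 23.9 ± 2.90 in M1 and 18.1 ± 4.57 in M1+PBM. Entpd1, the ectonucleotidase CD39 that degrades ATP and ADP, went from 24.5 ± 11.7 in M0 to 6.46 ± 2.99 in M1, a log2 difference of -1.73 whose groups overlapped after scaling. Entpd5 differed by -1.49 and Ak1, an adenylate kinase, differed by -1.404. Ak1 was at 1.94, 0.79 and 7.56 in M0, and without the high M0 replicate 3 its difference was -0.77, still without overlap.

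Of 13 expressed genes of Gq, Gi and calcium signalling, 3 were higher and 6 lower in M1, or 6 and 3 after scaling. The balance of this group turned with the scaling, where the share of all rows that were lower went from 50.6% to 28.1%. The calcium release channels Itpr1 and Itpr3 differed in opposite directions, by 0.90 and -1.56, and the phospholipase Plcb2 by -1.49, all without overlap under both scalings. Stim1, the calcium sensor of the endoplasmic reticulum, differed by -0.87 and overlapped after scaling. Of 15 genes linked to P2X7 or the inflammasome, all expressed, 8 were higher and 6 lower, or 8 and 4 after scaling. Not all of them act downstream of P2X7. The largest differences were those of the cytokine genes Il1b at 8.03 and Il1a at 7.42, the inflammasome caspase gene Casp4 at 2.41 and the cytokine gene Il18 at 2.21. As deposited, P2rx7 was lower in M1 while Nlrp3, Casp1 and Gsdmd of the inflammasome it can engage were higher, by 1.94, 1.92 and 1.75. Other inflammasome genes of this list went the other way, Pycard at -0.46 and Nek7 at -0.45 without overlap. Both of these overlapped after scaling, so the inflammasome genes did not move as 1 group.

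In M1+PBM against M1, 40 genes of these lists were tested, 23 with a positive and 17 with a negative log2 fold change and a median of 0.035, which was -0.037 after median-of-ratios scaling and -0.0067 without M1 replicate 1. At an unadjusted p of at most 0.05 in limma 3 were higher and 2 lower, where 2.99% of all rows were higher and 1.45% lower. The genes at that p were all from the P2X7-linked list, and 0 of the 40 passed at an adjusted p under 0.05. Il1b at -1.07 and Il1a at -1.74 were the lower ones, and both are among the inflammatory genes that the study picked from these libraries, so their direction is not independent evidence. The higher ones were Kcnk6, a potassium channel of the two-pore family, at 0.62, the inflammasome adaptor Pycard at 0.45 and the transcription factor Nfatc1 at 0.28. None of the genes of release, breakdown or G protein signalling reached that p.

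**Figure D4:**
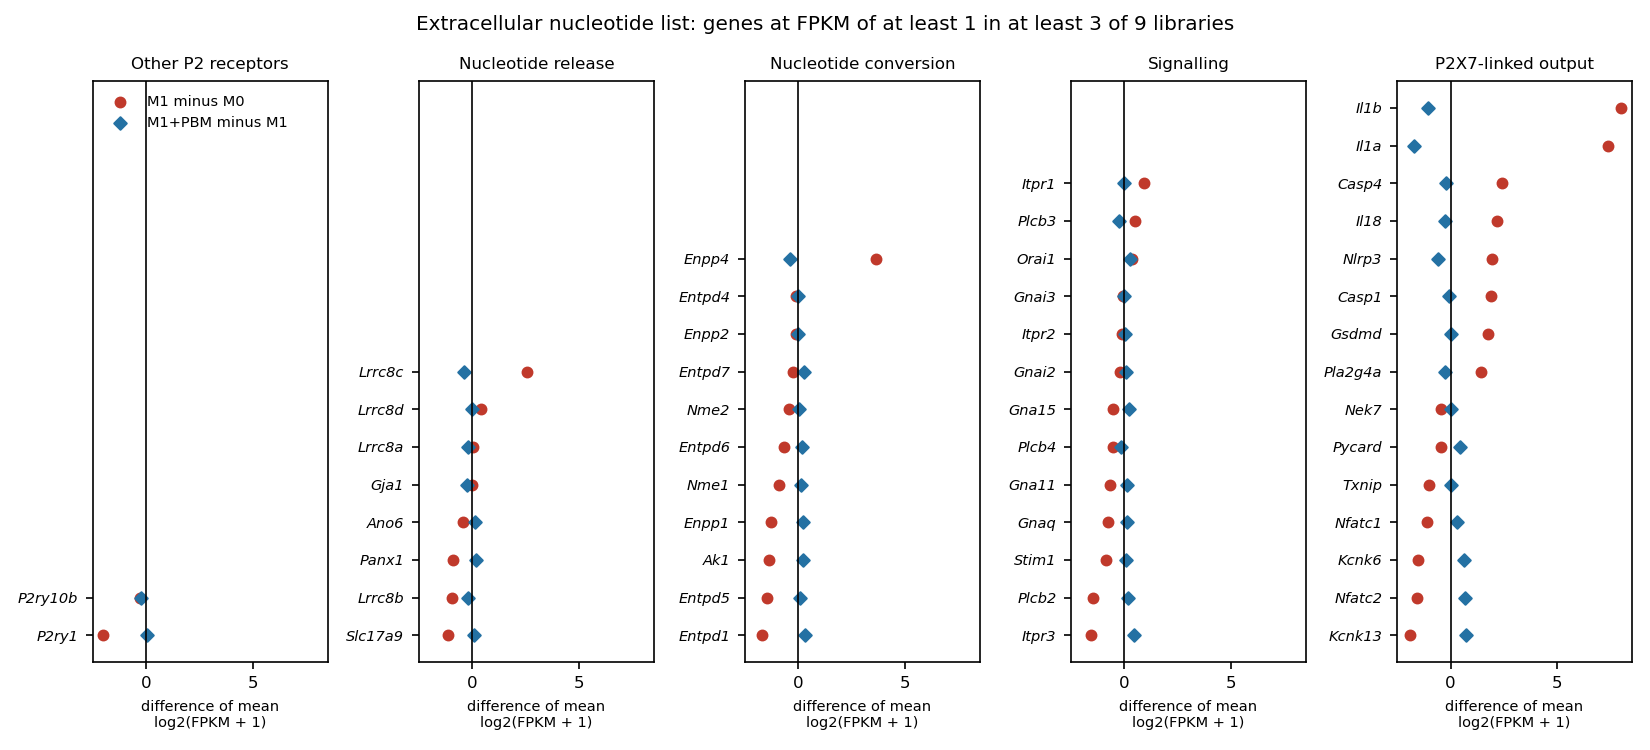
Difference of mean log2(FPKM + 1) (horizontal axes) for each expressed gene of the 5 lists around the receptors, with red circles for M1 minus M0 and blue diamonds for M1+PBM minus M1. Il1b at 8.03 and Il1a at 7.42 are the largest M1 differences, and their diamonds at -1.07 and -1.74 lie farthest to the left.

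Profiles over the 9 libraries were compared between each receptor gene with a range over 1 on the log2 scale and 13630 other genes, by the root mean square difference of centred log2(FPKM + 1). Closest to P2ry13 were AC132320.1 (0.14) and Ogfr, the opioid growth factor receptor gene (0.15). Closest to P2ry14 were Mfap3l (0.16) and C230066G23Rik (0.21). Closest to P2rx7 were Gm24252 (0.14) and Cdk20 (0.15), and closest to P2ry2 were E2f5 (0.14) and Fndc9 (0.15). All points share the same 9 libraries, and the likeness is a description.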

How the data were processed

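Total RNA of 9 macrophage cultures was sequenced from strand-specific libraries. The authors deposited FPKM values, made with Cufflinks methods per the study's methods, in 1 table for M0 and 1 for M1 and M1+PBM. The submitters' processing notes name Bowtie 0.12.2 and the build mm9 without a role, and the annotation and filters are not given in the sources used here. The tables hold no columns of comparisons, and 0 columns lacked a sample. Symbols from the GENCODE M21 names were found for 55154 of 55655 rows, and 320 rows named MSTRG had none.

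Members and gene lists were chosen with earlier results of these data known. M1+PBM was compared with M1 on log2(FPKM + 1) in limma 3.58.1 under R 4.3.3 (lmFit, eBayes with trend), over rows that reached an FPKM of 1 in 3 or more of 6 libraries, with Benjamini-Hochberg adjustment over all rows. Exact permutation tests were two-sided, from scipy 1.17.1. The fit was tested on simulated data. Of the low FPKM values of single-transcript genes, 35.0% to 37.9% were whole multiples of 1 fragment within 0.05, where an even spread gives 10%, so no reads were recovered and no count test was run.

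Same-numbered M1 and M1+PBM libraries deviated together from their group means (r across genes 0.157, 0.469 and 0.462, against -0.491 to 0.0328 between numbers). Deviations from a mean of 3 libraries cancel within a group, so positive values for the same number push those between numbers down. The values between numbers are thus not an independent comparison. The replicate numbers were taken to pair the samples in a fit with a replicate block. Named genes were the 8 receptors, up to 4 of each list by the size of the difference, genes that neighbour a receptor, and the 2 genes closest in profile. Kcnk6, Pycard, Nfatc1, Alb, Xist and Ddx3y were named after their values were seen, as were Nlrp3, Casp1, Gsdmd, Nek7 and P2ry10b. The settings changed in turn were the replicate block, the libraries left out, the pseudocount (0.1), the filter (none, or a mean FPKM of 5), the scaling (median-of-ratios, or quantile) and the trend in eBayes (off). The count of receptor genes at an unadjusted p of at most 0.05 was added after seeing the data.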

Additional observations from a re-analysis of the deposited data

How the results depend on the processing

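The depth behind the receptors was set by their level. Upper estimates from the longest transcript put 80.4 to 761.8 fragments behind P2ry13 and 201.8 to 1829.1 behind P2ry14, 806.1 to 2443.9 behind P2rx7 and at most 120.9 behind P2ry12. No receptor gene passed the study's cutoffs in limma under any alternative. The number of all genes past them was 32 (3 higher and 29 lower), 75 with a pseudocount of 0.1 (23 and 52), and 27 to 89 when 1 library was left out, of which 69 came without M1 replicate 2, while M1+PBM replicate 2 left out gave 89. The number of receptor genes at an unadjusted p of at most 0.05 in limma was 1, 2 with the replicate block, and 0 to 3 when 1 library was left out, with 0 without M1 replicate 2, M1+PBM replicate 1 or M1+PBM replicate 3 and 3 without M1+PBM replicate 2. The replicate block changed no call at an adjusted p under 0.05. The median log2 fold change of the nucleotide lists turned to -0.037 with median-of-ratios scaling and lay between -0.0067 and 0.072 when 1 library was left out, with -0.0067 without M1 replicate 1. With 1 library left out the fold change of P2ry6 ran from -0.0045 (without M1+PBM replicate 3) to 0.39, and the M1 minus M0 difference of P2rx1 from -0.035 to 0.012 (without M0 replicate 3). Of the values of M1+PBM against M1 for single receptors under the alternatives, 68 kept their direction and side of the unadjusted threshold, 4 passed it only in the alternative, 4 only in the fit reported and 1 turned. The causes were not tested.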

Other observations

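The sum of FPKM over the 8 receptor genes (mean ± SD, n = 3) was 81.4 ± 7.73 in M0, 101.4 ± 3.97 in M1 and 111.4 ± 14.1 in irradiated M1. The 3 channel genes made up 35.4 ± 5.90, 39.7 ± 1.13 and 47.0 ± 3.66 of it, and the 5 P2Y genes 46.0 ± 4.04, 61.7 ± 5.07 and 64.4 ± 12.0. Channel sums in M1+PBM, 43.5 to 50.8, all lay above those in M1, 38.5 to 40.7, while the P2Y sums of these groups overlapped. After median-of-ratios scaling the channel sums overlapped too, at 45.7 to 54.4 in M1+PBM and 43.4 to 46.2 in M1.

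Within a library P2ry6 was 5.95, 6.86 and 7.69 times P2ry2 in M1 and 10.9, 5.56 and 18.8 times in M1+PBM, where replicates 1 and 3 were above every M1 library and replicate 2 below. P2ry13 was 9.34, 12.2 and 19.6 times its neighbour P2ry12 in M1 and 1.91, 4.11 and 3.86 times in M0, without overlap. P2ry13 over P2ry14 overlapped in all 3 groups, at 0.66 to 3.08 in M0, 0.97 to 2.88 in M1 and 1.15 to 3.18 in M1+PBM.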
